A study of Homo sapiens with 21 samples.

Results

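BT-TPR2 is a pool of BT474 cells that resists trastuzumab and pertuzumab given together, and its RNA was compared with that of untreated parental BT474. BT474 is an established human breast cancer cell line that carries many copies of ERBB2, the gene of the receptor HER2, and both antibodies bind the outer part of that receptor at different places. The comparison took the 3 libraries labelled BT-TPR2 and the 3 libraries labelled as untreated BT474, 6 of the 21 RNA-seq libraries in the series, and covered all genes of the count table. The other libraries, 3 per group, were BT-TPR1, a separate pool resistant to both antibodies, BT-TR1 and BT-TR2, pools resistant to trastuzumab, and BT474 given for 3 days either 10 µg/mL trastuzumab or 10 µg/mL of each antibody. All 4 resistant pools had been kept for 7 days without antibody when they were harvested. All cells grew in RPMI-1640 medium with serum. BT-TPR2 is 1 pool, so its 3 libraries describe that pool, and the labels do not say whether they come from separate cultures. The p-values therefore measure only the spread between libraries of a group, which was estimated in 1 fit of all 21 libraries.

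HER2 has no known ligand of its own and signals in pairs with EGFR, HER3 or HER4, which are opened by ligands such as the neuregulins and EGF. Trastuzumab binds HER2 near the membrane and pertuzumab binds the arm through which HER2 pairs with its partners. Below the receptors lie the PI3K and AKT pathway and the RAS and ERK pathway, and luminal breast cells also express estrogen receptor and its targets.

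The BT-TPR2 libraries held 17483736, 19559313 and 15880398 counts in genes, within the range of 7939270 to 21746391 over all 21. Levels are CPM (read counts scaled to a common normalized library total), always given for libraries 1, 2 and 3 in that order. In both groups library 1 stood apart. Across genes, its deviation from the group mean correlated with GC content (r = 0.63 in BT-TPR2 and 0.64 in untreated cells), against -0.55 to -0.28 in the other 4 libraries. All 12 markers of the line, among them ERBB2, GATA3 and the luminal keratins, were expressed, with a summed level of 12485 to 17110 CPM in untreated cells and 10221 to 15277 CPM in BT-TPR2. Immune markers summed to at most 1.26 CPM in any of the 6 libraries. Fibroblast markers summed to 25.9 to 46.7 CPM in untreated cells and 17.5 to 35.0 CPM in BT-TPR2, with COL1A2 and DCN at 0 counts, and endothelial markers to 10.1 to 19.5 and 5.95 to 8.38 CPM, with TEK at 0. Myoepithelial markers summed to 18.3 to 20.2 CPM in untreated cells and 12.2 to 17.7 CPM in BT-TPR2.

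About as many genes were higher in BT-TPR2 as were lower, but the large changes were mostly losses. At an adjusted p under 0.05 in edgeR's quasi-likelihood test, 5575 of 17650 genes tested were called (31.6%), of which 2746 (15.6%) were higher and 2829 (16.0%) lower. Of these calls, 1646 (9.33%) were of at least 2-fold, and 549 of them were higher (3.11%) and 1097 lower (6.22%). Over all genes tested the median log2 fold change was -0.01. The 3 libraries of BT-TPR2 and the 3 untreated ones did not overlap for 6712 genes (38.0%), so a gene without overlap is not rare here. In bulk RNA a lower level can be less RNA per cell or fewer cells that make it, and these cannot be told apart. Each result was recomputed in up to 18 other ways (other filters, scalings, tests, a replicate block, and each library of the comparison left out in turn), and a call is said to be lost where its adjusted p then exceeded 0.05. The number of calls was 9019 with the replicate number as a block, 3060 when only the 6 libraries were fitted and 3665 without BT-TPR2 library 2. The near-even split into higher and lower depended on the scaling. By library size alone 2866 genes were higher and 2185 lower (median 0.081). With a correction for GC content 4054 were higher and 3514 lower (median 0.036).

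**Figure D1:**
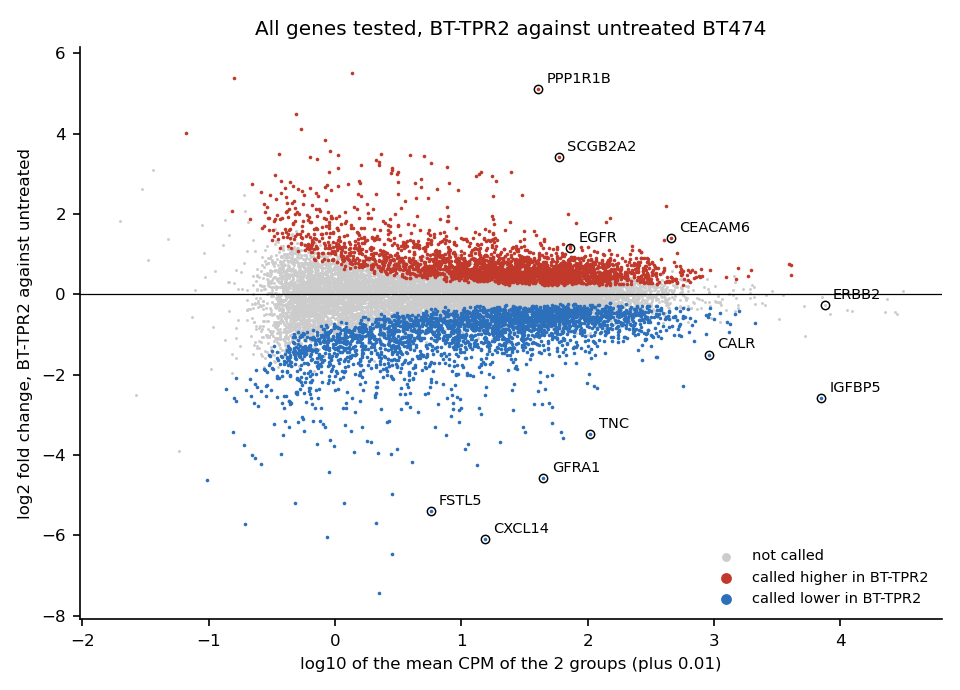
Each point is a gene tested, with its mean level in both groups (log10 of CPM plus 0.01, horizontal axis) against its log2 fold change in BT-TPR2 over untreated BT474 (vertical axis), coloured by call at an adjusted p under 0.05. Both axes are on log scales. The lower side holds more points beyond 2-fold (1097 genes) than the upper side (549 genes), and among the labelled genes PPP1R1B is highest and CXCL14 lowest.

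The largest rise among genes of at least 5 CPM was in PPP1R1B, which encodes DARPP-32, an inhibitor of protein phosphatase 1 that is switched on by protein kinase A (ENSG00000131771.13, chr17:39626740-39636626, hg38). It stood at 71.4, 83.5 and 82.6 CPM in BT-TPR2 and 2.14, 2.02 and 2.63 CPM in untreated cells, a log2 fold change of 5.12 ± 0.17, edgeR adjusted p = 2.57e-13. Every BT-TPR2 library was far above every untreated one. The counts are per gene, so which transcript of PPP1R1B rose, and whether it encodes full-length DARPP-32, cannot be told. VTN, the adhesive plasma protein vitronectin, rose from 1.21, 0.931 and 0.454 to 12.5, 7.16 and 8.21 CPM (3.44 ± 0.34, edgeR adjusted p = 4.61e-07). SCGB2A2, mammaglobin-A, a secreted protein of breast epithelium, rose from 10.1, 11.5 and 8.89 to 109, 102 and 116 CPM (3.42 ± 0.15, edgeR adjusted p = 1.06e-11). GYG2, glycogenin-2, the primer of glycogen synthesis, rose from 1.81, 1.60 and 1.18 to 14.02, 14.2 and 13.5 CPM (3.19 ± 0.17, edgeR adjusted p = 1.31e-10). In none of these genes did the groups overlap. ASS1, argininosuccinate synthase, which makes the precursor of arginine, rose from 3.79, 2.84 and 2.68 to 27.7, 25.5 and 23.7 CPM (3.05 ± 0.18, edgeR adjusted p = 3.01e-10), and its processed pseudogene ASS1P11 was called with a value of 3.28. Reads of the pseudogene and of its parent are near-identical, so the split between them is uncertain.

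CYP1A1, a cytochrome P450 that oxidises polycyclic aromatic compounds, stood at 53.7, 32.2 and 45.3 CPM in BT-TPR2 and 5.77, 5.48 and 4.72 CPM in untreated cells (3.04 ± 0.18, edgeR adjusted p = 4.24e-10). Its BT-TPR2 libraries differed among themselves, with library 2 lowest, and all were above the untreated ones. The remaining genes among the 14 largest rises had log2 fold changes between 2.60 and 3.005. They were TCEA3, a transcription elongation factor (3.005), S100A4, a calcium-binding protein often found in motile cells (2.96), VEGFB, a growth factor for VEGF receptor 1 (2.95), and BHLHE41, a repressor of the circadian clock (2.84). S100P, another S100 protein (2.77), CA2, carbonic anhydrase 2 (2.63), and B3GAT1, which makes the CD57 sugar epitope (2.60), completed the set.

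The largest fall among genes of at least 5 CPM was in CXCL14, a chemokine of epithelia (ENSG00000145824.12, chr5:135570679-135579279, hg38). It stood at 0.524, 0.465 and 0.313 CPM in BT-TPR2 and 32.6, 32.5 and 26.0 CPM in untreated cells, a log2 fold change of -6.09 ± 0.33, edgeR adjusted p = 1.31e-10. FSTL5, a secreted follistatin-like protein, was at 0.349, 0.279 and 0.125 CPM in BT-TPR2 and 9.78, 13.8 and 9.84 CPM in untreated cells (-5.41 ± 0.32). GFRA1, the co-receptor through which GDNF reaches RET (ENSG00000151892.14, chr10:116056925-116273467, hg38), was at 3.72, 3.40 and 3.70 CPM in BT-TPR2 and 90.5, 85.8 and 80.3 CPM in untreated cells (-4.57 ± 0.15, edgeR adjusted p = 1.85e-13). All 3 genes lay far below their parental level in every BT-TPR2 library. SYT1, synaptotagmin-1, the calcium sensor of vesicle release, fell from 22.3, 29.3 and 23.95 to 1.28, 1.35 and 1.32 CPM (-4.25 ± 0.17). SERPINI1, neuroserpin, an inhibitor of tissue plasminogen activator, fell from 35.6, 40.9 and 35.3 to 3.26, 2.05 and 3.45 CPM (-3.69 ± 0.22). TNC, the matrix glycoprotein tenascin-C, fell from 236, 176 and 167 to 18.5, 15.3 and 18.1 CPM (-3.48 ± 0.16). Several others in this group act at the cell surface or in the matrix. These were the protocadherin PCDH7 (-3.72), the collagen-binding anthrax toxin receptor ANTXR1 (-3.58), the basement membrane protein FRAS1 (-3.49), the secreted follistatin-like FSTL1 (-3.43), the matrix protease ADAMTS1 (-3.42) and the lipoprotein receptor relative LRP1B (-3.29). P2RY10, a G protein-coupled receptor for lysophospholipids (-3.84), and SLC39A8, a zinc and manganese importer (-3.30), made up the 14.

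**Figure D2:**
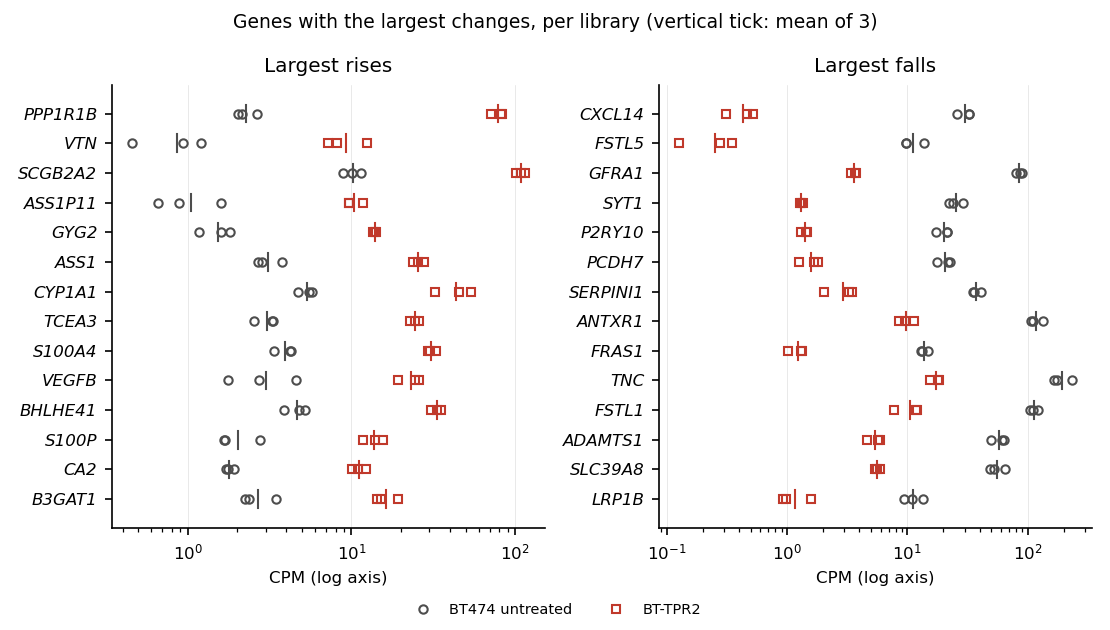
Level in CPM (horizontal, log axis) in each of the 3 BT-TPR2 libraries (squares) and 3 untreated libraries (circles) for the 14 largest rises (left) and 14 largest falls (right), with a vertical tick at each mean. The 2 groups do not overlap for any gene shown, and CXCL14, FSTL5 and GFRA1 lie lowest in BT-TPR2 relative to untreated cells.

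By amount of RNA, the fall that removed most was in IGFBP5, an insulin-like growth factor binding protein (ENSG00000115461.4, chr2:216672105-216695525, hg38). It was at 2246, 1773 and 2018 CPM in BT-TPR2 and 12177, 12409 and 11798 CPM in untreated cells (-2.59 ± 0.14, edgeR adjusted p = 1.31e-10). All BT-TPR2 libraries lay far below all untreated ones. CALR, calreticulin, a calcium-binding chaperone of the endoplasmic reticulum, was at 510.4, 387 and 528 CPM in BT-TPR2 and 1300.5, 1568 and 1155 CPM in untreated cells (-1.50 ± 0.16, edgeR adjusted p = 9.41e-07). COL12A1, a collagen that sits on collagen fibrils (-2.28), FLNA, the actin cross-linker filamin A (-1.15), and AGR2, a disulfide isomerase of secretory cells (-1.05), were the other large falls in CPM. The largest rise in CPM was in CEACAM6, a cell adhesion molecule of the carcinoembryonic antigen family, at 664, 579 and 737 CPM in BT-TPR2 and 243, 259 and 244 CPM in untreated cells (1.41 ± 0.12, edgeR adjusted p = 4.93e-08). TMSB10, which binds actin monomers (1.04), and S100A14 (1.35) were also among the largest rises in CPM.

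Among the HER receptors, EGFR rose while ERBB2 did not pass the test. ERBB2 (ENSG00000141736.13, chr17:39687914-39730426, hg38) was at 9278, 5331 and 5877 CPM in BT-TPR2 and 10347, 6673 and 7532 CPM in untreated cells, a log2 fold change of -0.26 ± 0.24, edgeR adjusted p = 0.425. Its libraries overlapped between the groups, library 1 being highest in each. EGFR (ENSG00000146648.15, chr7:55019021-55211628, hg38), the receptor of EGF, was at 105, 96.7 and 101 CPM in BT-TPR2 and 46.6, 42.4 and 46.6 CPM in untreated cells (1.16 ± 0.13, edgeR adjusted p = 2.19e-06), with no overlap. ERBB3, which encodes HER3, had a log2 fold change of 0.06 ± 0.12, edgeR adjusted p = 0.762, and ERBB4, which encodes HER4, of -0.05 ± 0.15, edgeR adjusted p = 0.82. Of the 7 HER ligand genes tested, 5 fell and none rose, against 16.0% and 15.6% of all genes. In the fit with the replicate block, or without untreated library 2, 1 rose. The falls were AREG (-1.75), BTC (-1.60), EGF (-1.52), HBEGF (-1.50) and NRG3 (-1.41), the last chosen after its value was seen. AREG, amphiregulin, BTC, betacellulin, EGF and HBEGF bind EGFR, and NRG3, a neuregulin, binds HER4. HBEGF lost its call in 4 of 15 alternatives (edgeR adjusted p = 0.0519 to 0.0724, among them without untreated library 2 or BT-TPR2 library 1 or 2).

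Estrogen receptor and many of its targets were lower in BT-TPR2. ESR1, which encodes estrogen receptor alpha, was at 40.8, 48.3 and 48.0 CPM in BT-TPR2 and 75.3, 81.1 and 88.1 CPM in untreated cells (-0.83 ± 0.10, edgeR adjusted p = 5.8e-06). PGR, the progesterone receptor and a classical estrogen receptor target (ENSG00000082175.14, chr11:101029624-101130524, hg38), was at 155, 196 and 183 CPM in BT-TPR2 and 451, 540.0 and 573 CPM in untreated cells (-1.55 ± 0.17, edgeR adjusted p = 1.59e-06). Neither gene showed overlap between the groups. Among luminal transcription factors and steroid receptors, of 17 members tested, 2 rose and 6 fell (median log2 fold change -0.25). GATA3, a luminal transcription factor (-0.91), was with PGR and ESR1 among the falls. NR3C1, the glucocorticoid receptor (1.88), and ELF5, a factor of secretory luminal cells (0.86, chosen after its value was seen), were the rises, and 4 rose in the fit with the replicate block. Of 27 estrogen receptor targets tested, 15 fell and 2 rose (median -0.51), against 16.0% and 15.6% of all genes. AGR3, a relative of AGR2 (-3.19), STC2, the glycoprotein stanniocalcin-2 (-1.64), and SLC7A2, a transporter of basic amino acids (-1.50), fell. The rises were FKBP4, a co-chaperone of steroid receptors (0.89), and EGR3, an early response transcription factor (0.72), both named after their values were seen. EGR3 lost its call in 5 of 18 alternatives (edgeR adjusted p = 0.0525 to 0.0849, among them without untreated library 2 or 3 or BT-TPR2 library 3).

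All calls among other receptor tyrosine kinases were falls, where 16.0% of all genes tested fell and 15.6% rose. Of 21 tested, 12 fell and none rose (median -0.77), and 1 rose in the fit with the replicate block. The largest falls were in EPHA2, an ephrin receptor (-1.68), FGFR2, a fibroblast growth factor receptor (-1.51), KIT, the stem cell factor receptor (-1.39), and MERTK, which recognises dying cells (-1.37). KIT lost its call in 4 of 16 alternatives (edgeR adjusted p = 0.0516 to 0.133, among them without untreated library 2 or BT-TPR2 library 1 or 2) and stood at -2.13 without BT-TPR2 library 3. In the group of RET and GDNF receptors, 4 of 5 genes fell. Beside GFRA1 these were GFRA2, the neurturin co-receptor (-1.87 ± 0.36), RET itself (-0.76 ± 0.19) and ARTN, the ligand artemin (-1.88 ± 0.65). ARTN lost its call in 9 of 15 alternatives (edgeR, DESeq2 and limma adjusted p = 0.0526 to 0.158, among them without untreated library 1 or 2 or BT-TPR2 library 2 or 3).

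DARPP-32 acts in the cAMP pathway, and other genes of that pathway moved in both directions. Of 29 genes of cAMP signalling, protein kinase A and protein phosphatase 1, 8 rose and 8 fell (median 0.04). Without BT-TPR2 library 2, 5 rose. ADCY2, an adenylyl cyclase that makes cAMP, had a value of -2.56. The phosphodiesterases that break cAMP down differed from each other, with PDE4B at 1.50 and PDE3B at -1.25. Of 19 PI3K and AKT core genes, 4 were called (median 0.13), a share below the 31.6% of all genes tested. PIK3R1, the regulatory subunit p85 alpha, fell from 63.2, 70.6 and 60.9 to 22.05, 25.02 and 28.0 CPM (-1.38 ± 0.12, edgeR adjusted p = 1.24e-07). The other calls were small, RPS6KB1, the S6 kinase (0.50), RHEB, the activator of mTORC1 (0.42), and PIK3R3, another regulatory subunit (0.40). RPS6KB1 lost its call in 4 of 18 alternatives (edgeR adjusted p = 0.0553 to 0.0868, among them without untreated library 1 or BT-TPR2 library 2 or 3). RHEB lost its call in 6 of 18 alternatives (edgeR adjusted p = 0.0579 to 0.117, among them without untreated library 2 or 3 or BT-TPR2 library 2 or 3). In this group 5 rose and 5 fell in the fit with the replicate block. Without BT-TPR2 library 1, 4 fell, without BT-TPR2 library 2 or 3, 1 rose, and without untreated library 2 or 3, 2 fell.

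Secretory proteins of apocrine breast epithelium moved in both directions, and S100 proteins that passed the test rose. Of 13 apocrine and secretory genes tested, 6 rose and 3 fell (median 0.13). Their summed level was lower in BT-TPR2, at 1004 to 1178 CPM against 1350.1 to 1530.1 CPM in untreated cells. The falls, chosen after their values were seen, were LTF, lactoferrin (-1.45), CLU, the extracellular chaperone clusterin (-1.29), and PIP, prolactin-induced protein (-1.19). AZGP1, zinc-alpha-2-glycoprotein, rose from 1.98, 1.86 and 1.59 to 7.56, 6.09 and 7.33 CPM (1.95 ± 0.23, edgeR adjusted p = 3.55e-06), and APOD, apolipoprotein D, had a value of 1.54 ± 0.54. LCN2, the iron-carrying lipocalin-2, was called higher (edgeR adjusted p = 0.00441) at 0.291, 0.512 and 0.313 CPM against 0, 0.103 and 0.0454 CPM in untreated cells, too few counts for a fold change. LTF lost its call in 5 of 16 alternatives (edgeR adjusted p = 0.0733 to 0.259, among them without untreated library 1 or BT-TPR2 library 1 or 2). APOD lost its call in 4 of 16 alternatives (edgeR adjusted p = 0.0805 to 0.169, among them without untreated library 1 or 2 or BT-TPR2 library 3) and stood at 2.16 without untreated library 3. Of 12 S100 genes, 9 rose and none fell (median 0.81), against 15.6% and 16.0% of all genes. The summed level of the family was 553 to 785 CPM in untreated cells and 1347 to 1359 CPM in BT-TPR2. S100A4 was at 32.8, 30.1 and 29.6 CPM in BT-TPR2 and 4.23, 3.36 and 4.26 CPM in untreated cells (2.96 ± 0.19, edgeR adjusted p = 1.1e-09). S100P (2.77) and the calprotectin subunits S100A9 (2.28) and S100A8 (1.99) rose with it.

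**Figure D3:**
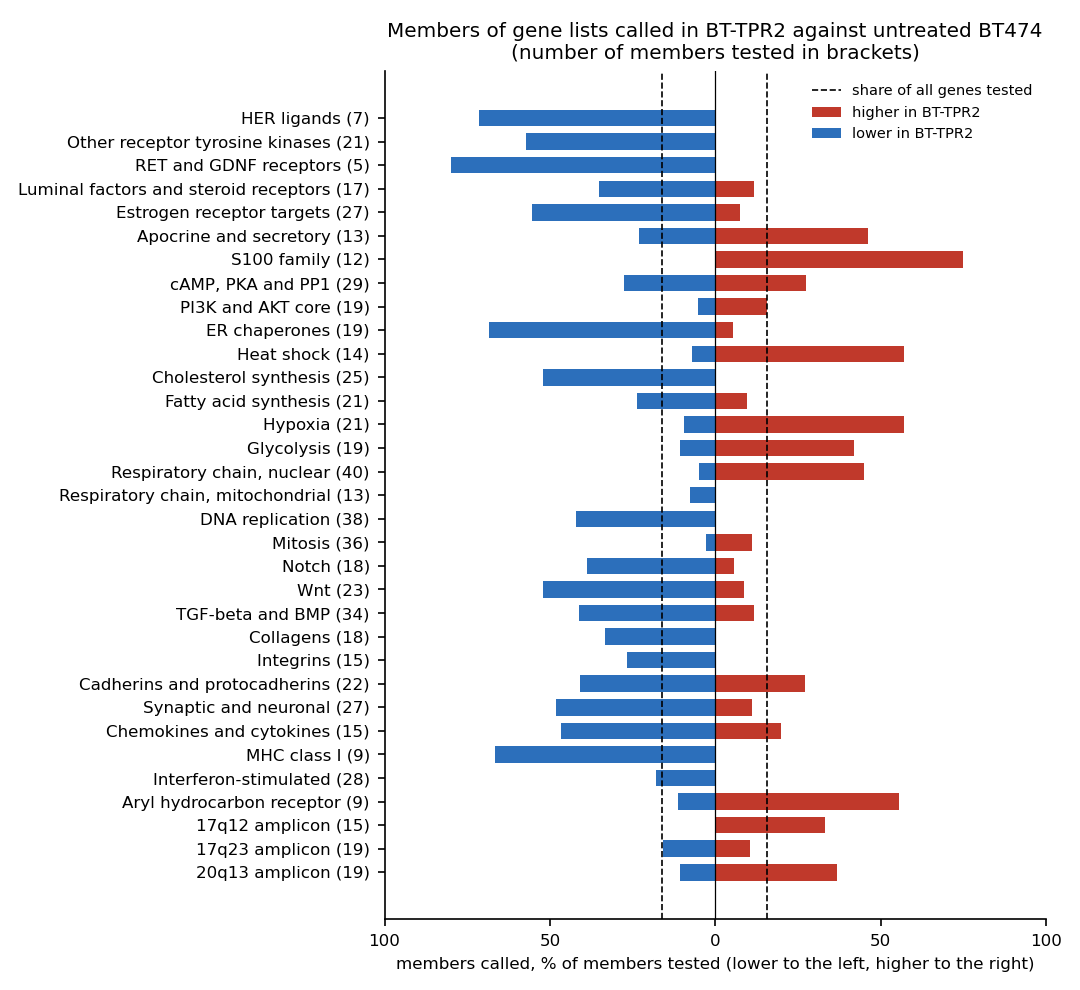
For each gene list (number of members tested in brackets) the bar gives the percentage of tested members called higher (right, red) and lower (left, blue) in BT-TPR2 against untreated BT474, and the dashed lines give the share of all genes tested (15.6% higher and 16.0% lower). The longest bars to the left are RET and GDNF receptors (4 of 5), HER ligands (5 of 7) and ER chaperones (13 of 19), and the longest to the right is the S100 family (9 of 12).

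Most calls among chaperones of the endoplasmic reticulum (ER) were falls, and most among heat shock genes were rises. The ER chaperones fold secreted and membrane proteins, and many are induced through the ER stress response element (ERSE), which ATF6 binds together with NF-Y. Of 19 ER chaperone genes, 13 fell and 1 rose (median -0.64), against 16.0% and 15.6% of all genes. HSPA5, the ER HSP70 called BiP, was at 591, 491 and 639 CPM in BT-TPR2 and 1041, 1349 and 1041 CPM in untreated cells (-0.996 ± 0.14, edgeR adjusted p = 3.39e-05). HSP90B1, the ER HSP90 called GRP94, had a value of -0.79 ± 0.17 (chosen after its value was seen). CRELD2, a disulfide isomerase-like protein, had a value of -1.31 ± 0.29, and SEL1L, a part of the degradation machinery, of -1.02 ± 0.15. Together with CALR these genes had no overlap between the groups. The member that rose was SEC61B, a subunit of the translocation channel, at 0.81 ± 0.13 (chosen after its value was seen).

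The ERSE letters, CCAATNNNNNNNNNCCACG on either strand, occur in the 250 bases upstream of 25 of 27305 genes with a RefSeq promoter (0.0916%, GRCh38.p14). They occur in 7 of the 18 ER chaperone genes with a promoter entry, HSPA5, HSP90B1, CALR, CANX, PDIA6, CRELD2 and XBP1, and in 5 of the 12 with an entry that fell. The 4 of these that are named here as falls are printed so that the shared letters can be seen, with the match in capitals, 5′ to 3′ along the gene's strand. The stretch for CALR lies at chr19:12938369-12938417 on the plus strand, for HSPA5 at chr9:125241376-125241424 on the minus strand, for HSP90B1 at chr12:103930201-103930354 on the plus strand and for CRELD2 at chr22:49918539-49918587 on the plus strand. HSP90B1 holds 2 matches, 1 in each direction.
CALR: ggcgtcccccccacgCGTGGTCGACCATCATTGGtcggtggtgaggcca
HSPA5: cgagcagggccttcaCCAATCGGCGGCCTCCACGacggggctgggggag
HSP90B1: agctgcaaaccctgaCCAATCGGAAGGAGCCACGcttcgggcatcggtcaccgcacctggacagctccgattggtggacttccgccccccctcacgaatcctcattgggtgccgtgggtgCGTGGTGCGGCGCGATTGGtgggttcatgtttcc
CRELD2: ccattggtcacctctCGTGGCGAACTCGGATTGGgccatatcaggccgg
In CALR and CRELD2 the match reads in the reverse direction, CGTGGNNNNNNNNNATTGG, and in HSPA5 in the forward direction. A match is a description of the sequence, and binding was not measured.

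Of 14 heat shock genes, 8 rose and 1 fell (median 0.66), against 15.6% and 16.0% of all genes. Without BT-TPR2 library 2 or 3 the rises numbered 5. With the replicate block 2 fell. DNAJA1, a co-chaperone of HSP70, was at 310.0, 411 and 438 CPM in BT-TPR2 and 157, 220.0 and 238 CPM in untreated cells (0.91 ± 0.17, edgeR adjusted p = 0.000501). BAG3, which links HSP70 to autophagy, had a value of 0.79 ± 0.17, and HSPA1B, an inducible HSP70, of 1.35 ± 0.47 at levels under 2 CPM. Its near-identical copy HSPA1A can take reads from it, so HSPA1B is uncertain. HSPA1B lost its call in 6 of 17 alternatives (edgeR adjusted p = 0.0587 to 0.131, among them without untreated library 1 or 2 or BT-TPR2 library 2 or 3) and stood at 2.29 without untreated library 3. The fall was in HSPB8, a small heat shock protein (-0.94 ± 0.17). HSPD1, the mitochondrial chaperonin HSP60 (chosen after its value was seen), rose with a value of 0.64 ± 0.13. The heat shock element letters GAANNTTCNNGAA, on either strand and with overlaps counted, occur upstream of 152 of 27305 genes (0.557%), of 4 of 14 heat shock genes, HSPA8, HSP90AA1, HSP90AB1 and HSPD1, and of 2 of the 8 that rose. The stretch of HSPD1 at chr2:197500053-197500090 on the minus strand holds 2 overlapping matches, in capitals.
HSPD1: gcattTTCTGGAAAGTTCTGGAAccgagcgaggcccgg
HSPD1 has 2 promoter entries in the RefSeq table, of which 1 is shown.

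Most calls among genes of the hypoxia response, which hypoxia-inducible factors (HIF) drive, were rises. Of 21 tested, 12 rose and 2 fell (median 0.63), against 15.6% and 16.0% of all genes. NDRG1, a stress-induced growth regulator, was at 126, 144 and 106 CPM in BT-TPR2 and 41.0, 29.5 and 39.7 CPM in untreated cells (1.77 ± 0.23, edgeR adjusted p = 9.32e-06). EPAS1, which encodes the factor HIF2 alpha (1.55 ± 0.10), and BHLHE40, a repressor related to BHLHE41 (1.31 ± 0.23), rose too, as did HK2, hexokinase 2 (0.98 ± 0.10). The falls were in SLC2A1, the glucose transporter GLUT1 (-0.86 ± 0.21), and HIF1A, the factor HIF1 alpha (-0.51 ± 0.14), both chosen after their values were seen. HIF1A lost its call in 4 of 18 alternatives (edgeR adjusted p = 0.0533 to 0.101, among them without untreated library 2 or BT-TPR2 library 1). The core of the hypoxia response element, ACGTG on either strand, is common, in 5935 of 27305 genes (21.7%). It occurs in 12 of 20 hypoxia genes with a promoter and in 6 of the 9 of them that rose. BHLHE40 is shown as the gene of this set with several matches, at chr3:4979187-4979307 on the plus strand, with each match in capitals.
BHLHE40: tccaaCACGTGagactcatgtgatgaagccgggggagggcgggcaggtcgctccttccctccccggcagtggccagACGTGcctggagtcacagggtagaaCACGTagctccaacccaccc
The first match, CACGTG, reads the same on both strands and is counted on each.

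Genes of glycolysis and of the nuclear-encoded respiratory chain had more rises than falls, where 15.6% of all genes tested rose and 16.0% fell. Of 19 glycolysis genes, 8 rose and 2 fell (median 0.37), with 4 rises without untreated library 2 and 5 without BT-TPR2 library 2. There were 4 falls in the fit with the replicate block and without BT-TPR2 library 1. LDHA, a lactate dehydrogenase subunit, was at 541, 651 and 656 CPM in BT-TPR2 and 372, 342 and 416 CPM in untreated cells (0.71 ± 0.11, edgeR adjusted p = 6.03e-05). The other subunit, LDHB, fell (-1.12 ± 0.10), as did the lactate exporter SLC16A1 (-0.76 ± 0.23). SLC16A1 lost its call in 4 of 18 alternatives (edgeR adjusted p = 0.0544 to 0.0711, without untreated library 1 or 2 or BT-TPR2 library 2 or 3). Of 40 nuclear genes of the respiratory chain, 18 rose and 2 fell (median 0.29). COX6B1, a subunit of complex IV (1.06), SDHB, of complex II (0.75), and UQCRFS1, of complex III (0.72), rose. The falls were in NDUFS7 (-1.09) and NDUFB1 (-0.42, chosen after its value was seen), both of complex I. NDUFS7 lost its call in 4 of 18 alternatives (edgeR adjusted p = 0.0808 to 0.148, among them without untreated library 1 or BT-TPR2 library 2 or 3). NDUFB1 lost its call in 6 of 18 alternatives (edgeR adjusted p = 0.058 to 0.111, among them without untreated library 1). The 13 genes carried by mitochondrial DNA had a median of -0.38 and 1 call, the fall of MT-ATP8, a subunit of ATP synthase (-0.71 ± 0.25). Of these, 5 fell with the replicate block. MT-ATP8 lost its call in 7 of 18 alternatives (edgeR and limma adjusted p = 0.0506 to 0.232, among them without untreated library 2 or BT-TPR2 library 1, 2 or 3).

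The calls among genes of cholesterol synthesis were falls. Of 25 tested, 13 fell and none rose (median -0.51), and 1 rose with libraries 2 and 3 alone. CYP51A1, lanosterol demethylase, was at 3.43, 1.44 and 1.32 CPM in BT-TPR2 and 12.5, 10.6 and 5.08 CPM in untreated cells (-2.19 ± 0.51, edgeR adjusted p = 0.00299). The groups did not overlap in CYP51A1. TM7SF2, a sterol reductase (-1.39), and LSS, which closes the sterol rings (-1.28), fell as well. Of 21 fatty acid synthesis genes, 5 fell and 2 rose, a share called close to the 31.6% of all genes, with 10 falls and 4 rises in the fit with the replicate block, and 4 rises without untreated library 2 or BT-TPR2 library 1. ACACA, acetyl-CoA carboxylase 1, was listed below 1 CPM in every library, where counts are few, and was called lower. Its log2 fold change of -2.54 ± 0.52 is uncertain, lying between -2.80 and -0.97 over the alternatives. ELOVL6, a chain elongase (-1.44), and FADS1, a desaturase (-1.11), fell, while THRSP, an inducer of lipid synthesis (2.18), rose. The other calls, chosen after their values were seen, were FADS2 (-0.94), ELOVL5 (-0.94) and ACSS2, an acetyl-CoA synthetase (0.87).

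The calls among genes of DNA replication were falls, while most genes of mitosis did not pass the test. Of 38 replication genes, 16 fell and none rose (median -0.30), with 10 falls without untreated library 1 and 10 without BT-TPR2 library 2. In the fit with the replicate block 22 fell and 1 rose, and 1 also rose without untreated library 2 or BT-TPR2 library 1. UHRF1, which carries DNA methylation through replication, was at 13.6, 10.8 and 8.65 CPM in BT-TPR2 and 34.8, 25.9 and 23.2 CPM in untreated cells (-1.34 ± 0.23, edgeR adjusted p = 0.000225). CDT1, the licensing factor (-0.88), and the helicase subunits MCM5 (-0.83) and MCM7 (-0.82) followed. CDT1 lost its call in 4 of 18 alternatives (edgeR adjusted p = 0.0863 to 0.228, among them without untreated library 1 or BT-TPR2 library 2 or 3). MCM5 lost its call in 3 of 18 alternatives (edgeR adjusted p = 0.09 to 0.147, without untreated library 1 or BT-TPR2 library 2 or 3). Of 36 mitosis genes, 4 rose and 1 fell (median 0.06), fewer than the 31.6% called among all genes. In the fit with the replicate block 12 rose and 3 fell, and without BT-TPR2 library 1 8 rose. PTTG1, securin, was at 27.4, 27.9 and 33.5 CPM in BT-TPR2 and 12.6, 12.2 and 15.9 CPM in untreated cells (1.12 ± 0.13, edgeR adjusted p = 2.36e-06). AURKA, Aurora kinase A (0.82), CENPA, the centromere histone (0.73), and BIRC5, survivin (0.39, chosen after its value was seen), were the other rises, and DLGAP5, a spindle protein (-0.48), was the fall, though its libraries overlapped. DLGAP5 lost its call in 7 of 18 alternatives (edgeR and limma adjusted p = 0.0566 to 0.271, among them without untreated library 2 or 3 or BT-TPR2 library 1 or 2). BIRC5 lost its call in 3 of 18 alternatives (edgeR adjusted p = 0.0604 to 0.0618, among them without BT-TPR2 library 2). MKI67, the proliferation marker Ki-67, had a value of -0.09 ± 0.21, edgeR adjusted p = 0.777 (chosen after its value was seen).

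In developmental signalling pathways the calls were mostly falls. Of all genes tested, 16.0% fell and 15.6% rose. Of 18 Notch genes, 7 fell and 1 rose (median -0.64), with 12 falls and 2 rises in the fit with the replicate block and 11 falls without BT-TPR2 library 1. MAML2, a coactivator, was at 0.175, 0.0465 and 0.188 CPM in BT-TPR2 and 1.21, 1.91 and 1.86 CPM in untreated cells (-3.62 ± 0.51, edgeR adjusted p = 2.92e-05). The target HEY2 (-2.01) and the ligands JAG2 (-1.99) and JAG1 (-1.81) fell as well. The rise was in MAML1, another coactivator (0.29 ± 0.11, chosen after its value was seen). MAML1 lost its call in 10 of 18 alternatives (edgeR adjusted p = 0.0612 to 0.175, among them without untreated library 1 or 2 or BT-TPR2 library 1, 2 or 3). Of 23 Wnt genes, 12 fell and 2 rose (median -0.70). The receptors FZD2 (-1.70) and FZD1 (-1.35) and the ligand WNT9A (-1.24) fell most, and the rises, chosen after their values were seen, were the inhibitor NKD1 (0.88) and the ligand WNT5B (0.81). FZD2 lost its call in 1 of 18 alternatives (edgeR adjusted p = 0.0627, without untreated library 1) and stood at -1.11 without untreated library 1. NKD1 lost its call in 4 of 18 alternatives (edgeR adjusted p = 0.0552 to 0.116, among them without untreated library 3 or BT-TPR2 library 2). WNT5B lost its call in 9 of 18 alternatives (edgeR, DESeq2 and limma adjusted p = 0.059 to 0.515, among them without untreated library 2 or 3 or BT-TPR2 library 1 or 2).

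Of 34 genes of TGF-beta and BMP signalling, 14 fell and 4 rose (median -0.31), against 16.0% and 15.6% of all genes. The ID genes are direct BMP targets whose products block basic helix-loop-helix factors. ID1 was at 2.68, 2.42 and 1.75 CPM in BT-TPR2 and 24.9, 13.5 and 12.4 CPM in untreated cells (-2.88 ± 0.30, edgeR adjusted p = 8.75e-07). ID3 was at 1.92, 1.72 and 1.50 CPM in BT-TPR2 and 15.8, 8.33 and 10.2 CPM in untreated cells (-2.73 ± 0.26), and ID4 was at 0.116, 0.465 and 0.188 CPM in BT-TPR2 and 4.01, 3.67 and 2.99 CPM in untreated cells (-3.67 ± 0.36). No library of BT-TPR2 reached the untreated range in any of these 3 genes. ID4 stood at -4.50 without BT-TPR2 library 2. BMP4, a ligand, had a value of -1.70 (chosen after its value was seen). The rises, chosen after their values were seen, were TGFBI, a matrix protein induced by TGF-beta (1.61 ± 0.18), BAMBI, a decoy receptor (0.80 ± 0.15), SMAD3, a signal transducer (0.39 ± 0.11), and ID2 (0.29 ± 0.10). SMAD3 lost its call in 2 of 18 alternatives (edgeR adjusted p = 0.0973 to 0.121, with no filter and with only the groups compared). ID2 lost its call in 7 of 18 alternatives (edgeR adjusted p = 0.051 to 0.176, among them without untreated library 1 or 3 or BT-TPR2 library 2 or 3).

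Most calls among matrix and adhesion genes were falls. Among all genes tested, 31.6% were called, 15.6% higher and 16.0% lower. Of 18 collagen genes, 6 fell and none rose (median -0.51), a share called in either direction close to the 31.6% of all genes. Without BT-TPR2 library 1, 10 collagen genes fell, and 1 rose in the fit with the replicate block. Their summed level was 995 to 1186 CPM in untreated cells and 243 to 314 CPM in BT-TPR2. Fibroblast markers overlapped between the groups in their summed level (25.9 to 46.7 and 17.5 to 35.0 CPM), with 2 defining markers at 0, and their part in the falls was not tested. COL12A1 (-2.28) was among the largest falls in CPM given above. The basement membrane collagens COL4A5 (-2.47) and COL18A1 (-1.19) and the microfibril collagen COL6A1 (-1.45) fell too, COL18A1 with overlap between the groups. COL18A1 lost its call in 5 of 18 alternatives (edgeR adjusted p = 0.0543 to 0.112, among them without untreated library 1 or 2 or BT-TPR2 library 2 or 3). Of 15 integrins, 4 fell and none rose, a share called in either direction below the 31.6% of all genes. In the fit with the replicate block 7 fell and 1 rose, and 1 rose without untreated library 1. The 4 were ITGB8 (-1.84), ITGA9 (-0.85), ITGB1 (-0.85) and ITGA6 (-0.73), of which ITGB1 is the common beta subunit. ITGA9 lost its call in 6 of 18 alternatives (edgeR adjusted p = 0.0519 to 0.182, among them without untreated library 1 or BT-TPR2 library 2 or 3). Of 24 matrix proteases and inhibitors, 7 fell and 3 rose, and 11 fell in the fit with the replicate block. PLAT, tissue plasminogen activator, was at 0.175, 0.186 and 0 CPM in BT-TPR2 and 2.14, 1.24 and 2.09 CPM in untreated cells (-3.77 ± 0.50, edgeR adjusted p = 1.62e-05). With so few counts the size of the PLAT fall is uncertain, lying between -4.97 and -1.94 over the alternatives. SERPINB5, the epithelial serpin maspin, rose from 0.275, 0.259 and 0.0454 to 1.40, 1.81 and 1.50 CPM (3.04 ± 0.40).

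Of 22 cadherins and protocadherins, 9 fell and 6 rose, against 16.0% and 15.6% of all genes, with 3 rises without BT-TPR2 library 3. PCDH9, a neuronal protocadherin (-1.90), fell with PCDH7, and the giant cadherin FAT3 was at 0.0582, 0.0465 and 0.0627 CPM against 0.659, 0.569 and 0.862 CPM (edgeR adjusted p = 7.8e-06), too few counts for a fold change. CDH5, vascular endothelial cadherin, rose (2.43 ± 0.45) while the endothelial markers, of which it is 1, summed to 10.1 to 19.5 CPM in untreated cells and 5.95 to 8.38 CPM in BT-TPR2. CDH5 stood at 3.10 without untreated library 1 and lay between 0.96 and 3.81 over all alternatives. Of 27 genes of synapses and neurons, 13 fell and 3 rose, with 6 rises in the fit with the replicate block. Beside SYT1 and SERPINI1 the largest falls were in NLGN4X, a synaptic adhesion protein (-2.84), and GABRE, a GABA receptor subunit (-2.83). Mesenchymal genes split, 4 falling and 3 rising of 9. VIM, vimentin, was at 2.39, 2.47 and 2.63 CPM in BT-TPR2 and 16.0, 13.5 and 13.3 CPM in untreated cells (-2.51 ± 0.17, edgeR adjusted p = 3.61e-09). SNAI1, the transcription factor Snail, rose from 1.10, 0.207 and 0.318 to 2.27, 1.67 and 1.50 CPM (1.77 ± 0.46), and CDH2, N-cadherin, fell (-1.28 ± 0.17). SNAI1 lost its call in 1 of 18 alternatives (edgeR adjusted p = 0.0706, after thinning) and stood at 2.76 without untreated library 1. The other calls, chosen after their values were seen, were TWIST1 (-0.94), FN1, fibronectin (-0.72), and CDH11 (0.68), besides S100A4. FN1 lost its call in 2 of 18 alternatives (edgeR adjusted p = 0.0542 to 0.0553, among them without BT-TPR2 library 3). CDH11 lost its call in 5 of 18 alternatives (edgeR adjusted p = 0.0509 to 0.0831, among them without untreated library 3 or BT-TPR2 library 2 or 3).

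All calls among MHC class I genes were falls. Of 9 MHC class I genes, which include the chaperones CALR and PDIA3, 6 fell and none rose (median -0.78). B2M, the common light chain, was at 18.3, 14.1 and 12.8 CPM in BT-TPR2 and 34.4, 27.0 and 21.1 CPM in untreated cells (-0.86 ± 0.25, edgeR adjusted p = 0.0141), and HLA-B at 2.21, 1.44 and 1.25 CPM in BT-TPR2 and 5.60, 3.88 and 3.54 CPM in untreated cells (-1.40 ± 0.34, edgeR adjusted p = 0.00397). Reads of the HLA genes are shared between near-identical copies, so HLA-B is uncertain. ERAP1 (-0.78) and ERAP2 (-0.78), which trim peptides, fell too. B2M lost its call in 3 of 18 alternatives (edgeR adjusted p = 0.052 to 0.0776, without untreated library 1 or BT-TPR2 library 2 or 3). ERAP2 lost its call in 3 of 18 alternatives (edgeR adjusted p = 0.063 to 0.184, among them without untreated library 2). Of 28 interferon-stimulated genes, 5 fell and none rose (median -0.32), and 9 fell in the fit with the replicate block. The share that fell is close to the 16.0% of all genes tested. The 5 were RSAD2 (-2.48), IFITM2 (-1.71), OAS3 (-1.13), HERC6 (-1.05) and PARP9 (-0.73), the last chosen after its value was seen. RSAD2 stood at -3.13 without BT-TPR2 library 2. IFITM2 lost its call in 3 of 13 alternatives (edgeR and DESeq2 adjusted p = 0.0513 to 0.153, among them without BT-TPR2 library 1 or 2) and stood at -2.39 without BT-TPR2 library 3. Of 15 chemokines, cytokines and receptors, 7 fell and 3 rose. Beside CXCL14, TNFSF15, a TNF-like cytokine (-2.31), IL6ST, the shared receptor gp130 (-1.99), and IL1R1, the interleukin-1 receptor (-1.84), fell. CXCR4, the receptor of CXCL12 (chosen after its value was seen), rose from 21.7, 18.4 and 16.97 to 67.3, 46.7 and 56.0 CPM (1.58 ± 0.22, edgeR adjusted p = 2.58e-05).

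The aryl hydrocarbon receptor is a transcription factor that induces enzymes which metabolise foreign aromatic compounds. Of 9 genes of its pathway, 5 rose and 1 fell, against 15.6% and 16.0% of all genes. Beside CYP1A1, the receptor's targets CYP1B1 (1.37 ± 0.19), CYP1A2 (1.50 ± 0.43) and NQO1 (0.43 ± 0.10) and its partner ARNT (0.42 ± 0.12, chosen after its value was seen) rose, while TIPARP, which restrains the receptor, fell (-0.60 ± 0.18). With the replicate block 2 fell. CYP1B1 was at 44.6, 39.9 and 51.0 CPM in BT-TPR2 and 14.8, 21.1 and 16.4 CPM in untreated cells. CYP1A2 lost its call in 5 of 18 alternatives (edgeR adjusted p = 0.0554 to 0.186, among them without untreated library 3 or BT-TPR2 library 1). NQO1 lost its call in 1 of 18 alternatives (edgeR adjusted p = 0.0557, with only the groups compared). ARNT lost its call in 4 of 18 alternatives (edgeR adjusted p = 0.0543 to 0.0877, among them without BT-TPR2 library 3). TIPARP lost its call in 4 of 18 alternatives (edgeR adjusted p = 0.0724 to 0.109, among them without untreated library 2 or BT-TPR2 library 1). Membrane transporters included some of the larger changes. Of 23 ABC transporters, 7 fell and 4 rose, and 13 fell in the fit with the replicate block and 12 without BT-TPR2 library 1. ABCA4 (-2.86), ABCC1 (-1.40), ABCD4 (-1.17) and ABCA3 (-1.04) fell most. ABCC1 exports many drugs. Of 21 amino acid transporters, 6 fell and 1 rose, a share called close to the 31.6% of all genes, and 10 fell in the fit with the replicate block. SLC6A14, an importer of neutral and basic amino acids (ENSG00000268104.2, chrX:116436622-116461458, hg38), was at 10.5, 10.8 and 12.8 CPM in BT-TPR2 and 63.4, 93.2 and 71.0 CPM in untreated cells (-2.73 ± 0.18, edgeR adjusted p = 1.58e-09). SLC7A11, the cystine importer, fell (-1.69 ± 0.25), and SLC1A2, a glutamate transporter, rose (1.54 ± 0.20).

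BT474 carries amplified stretches of chromosomes 17 and 20, which were examined as groups of neighbours. PPP1R1B lies near ERBB2 in the 17q12 group, where 5 of 15 genes rose and none fell, against 15.6% and 16.0% of all genes. The share called in either direction was close to the 31.6% of all genes. There were 2 to 3 rises when untreated library 1, 2 or 3 or BT-TPR2 library 1 or 3 was left out. With the replicate block 3 fell, and without BT-TPR2 library 1 2 fell. PNMT, which makes adrenaline (1.27), MIEN1, a migration-linked protein (1.11), GSDMB, a gasdermin (0.47), and CDK12, a transcription kinase (0.41), rose besides PPP1R1B. CDK12 is outside the 4 largest changes and was chosen after its value was seen. PNMT lost its call in 4 of 18 alternatives (edgeR adjusted p = 0.0613 to 0.0996, among them without untreated library 2 or 3 or BT-TPR2 library 1) and stood at 1.88 without untreated library 1. GSDMB lost its call in 8 of 18 alternatives (edgeR adjusted p = 0.0512 to 0.201, among them without untreated library 1, 2 or 3 or BT-TPR2 library 1 or 3). CDK12 lost its call in 7 of 18 alternatives (edgeR adjusted p = 0.051 to 0.174, among them without untreated library 1 or 3 or BT-TPR2 library 2 or 3). Of 19 genes of the 17q23 group, 5 were called, with values between -0.48 and 0.76, a share below the 31.6% of all genes tested. They were TUBD1 (0.76), RPS6KB1 (0.50), BRIP1 (-0.48), RNFT1 (-0.32) and HEATR6 (-0.25), HEATR6 chosen after its value was seen. BRIP1 overlapped between the groups. With the replicate block 4 rose. BRIP1 lost its call in 6 of 18 alternatives (edgeR adjusted p = 0.0553 to 0.161, among them without untreated library 2 or 3 or BT-TPR2 library 1). RNFT1 lost its call in 9 of 18 alternatives (edgeR and limma adjusted p = 0.0512 to 0.26, among them without untreated library 2 or 3 or BT-TPR2 library 2 or 3). HEATR6 lost its call in 7 of 18 alternatives (edgeR adjusted p = 0.0655 to 0.319, among them without untreated library 1, 2 or 3 or BT-TPR2 library 2). Of 19 genes of the 20q13 group, 7 rose and 2 fell (median 0.26). BCAS4 (1.35), DOK5 (1.08) and PFDN4, a prefoldin subunit (1.01), rose most. PREX1, a RAC activator (-1.0), and ATP9A, a lipid flippase (-0.56, chosen after its value was seen), were the falls.

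Along the chromosomes, chromosome 14 stood lowest. Its 586 tested genes had a median log2 fold change of -0.33, with 230 falls and 51 rises, and the median was -0.31 after the correction for GC content. The change against the same untreated libraries had a median of -0.34 in BT-TPR1, against 0.14 in BT-TR1 and -0.05 in BT-TR2. Lower values ran along the chromosome, as 22 of its 23 windows of 25 neighbouring genes had a median below 0. Chromosome 2 stood highest, with a median of 0.18 over 1187 genes, 306 rises and 103 falls, and medians of 0.17, 0.23 and 0.10 in the pools BT-TPR1, BT-TR1 and BT-TR2, respectively. DNA copy number was not measured, and its part in these medians was not tested.

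Of 688 windows of 25 genes, the lowest was at the end of chromosome 14 (chr14:103385392-105168824, MARK3 to JAG2), where the median was -0.88 and 17 genes fell and none rose. It ends with the Notch ligand JAG2, and its median was -0.63 with the GC correction. The next were a stretch of chromosome 16 (chr16:675666-1444556, RHBDL1 to CCDC154) at -0.81, which was -0.27 with the GC correction, and the protocadherin cluster of chromosome 5 (chr5:140664676-141641077, WDR55 to RELL2) at -0.77. The highest were the histone cluster of chromosome 6 (chr6:24804281-26216692, FAM65B to HIST1H2BG) at 0.69, a stretch of chromosome 9 (chr9:23690104-33076659, ELAVL2 to SMU1) at 0.55 and one of chromosome 2 (chr2:84516455-86142157, DNAH6 to SNORD94) at 0.55. Among all windows, 5% lay below -0.46 and 5% above 0.32. The protocadherin genes share exons and the histone genes near-identical sequence, so single genes in those windows are uncertain.

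**Figure D4:**
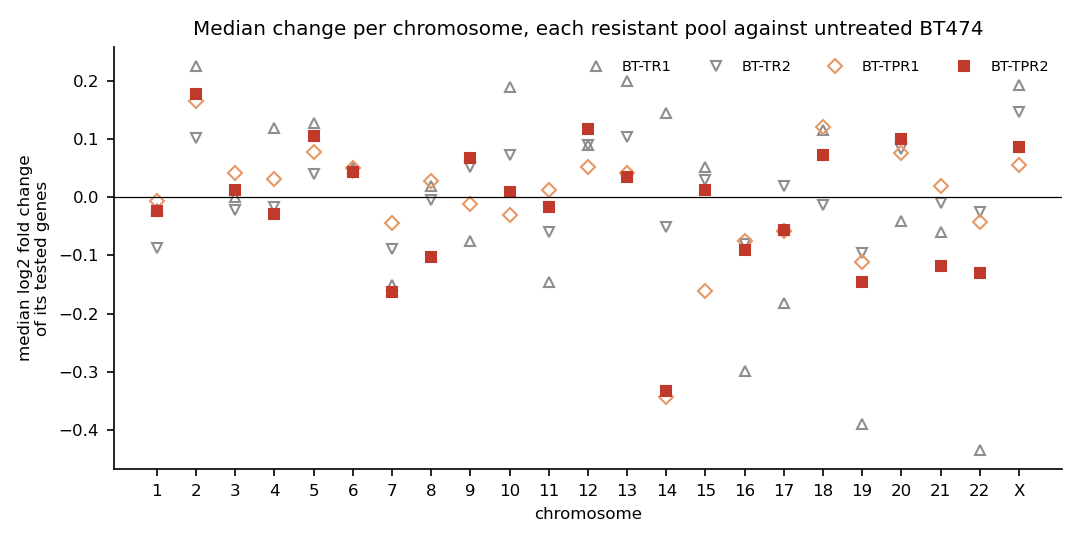
Median log2 fold change of the genes tested on each chromosome (horizontal axis, chromosomes; vertical axis, median log2 fold change) in BT-TPR2 and in the other 3 pools, each against the same untreated libraries. The 2 pools resistant to both antibodies, BT-TPR2 and BT-TPR1, lie at -0.33 and -0.34 on chromosome 14, while BT-TR1 lies at 0.14 and BT-TR2 at -0.05.

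BT-TPR2 was then compared directly with BT-TPR1, the other pool resistant to both antibodies, without the untreated libraries in the contrast. In edgeR's test 609 genes differed (3.45%), 289 higher (1.64%) and 320 lower (1.81%) in BT-TPR2, and 2119 differed in the fit with the replicate block. The count was 197 when the 6 libraries were fitted alone, and 351, 364 and 371 without BT-TPR1 library 1, BT-TPR1 library 2 or BT-TPR2 library 3. SLC6A14 was at 10.5, 10.8 and 12.8 CPM in BT-TPR2 and 64.2, 72.3 and 80.3 CPM in BT-TPR1 (-2.66 ± 0.18, edgeR adjusted p = 3.46e-08). Its level in BT-TPR1 lay in the range of untreated cells. PGR was at 155, 196 and 183 CPM in BT-TPR2 and 663, 784 and 673 CPM in BT-TPR1 (-1.99 ± 0.17, edgeR adjusted p = 8.3e-07). CYP1A1 was at 53.7, 32.2 and 45.3 CPM in BT-TPR2 and 10.8, 8.05 and 11.3 CPM in BT-TPR1 (2.12 ± 0.17, edgeR adjusted p = 4.6e-07). For these genes the libraries of the 2 pools did not overlap, which held for 18.8% of all genes.

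SCGB2A2 was lower in BT-TPR2 than in BT-TPR1, at 472, 535 and 479 CPM in the latter (-2.19 ± 0.14, edgeR adjusted p = 3.46e-08), although it was above untreated cells in both. The 6 lowest and 6 highest in BT-TPR2 relative to BT-TPR1 were taken among called genes of at least 5 CPM without overlap. The transporter SLC13A3 (-2.35), the pseudogene CYP2B7P (-2.13) and the cystatin CST1 (-2.04) completed the 6 lowest. The 6 highest within these limits were CYP1A1, the matrix protein ECM1 (1.48), the protocadherin PCDH19 (1.40), GYG2 (1.38), the membrane protein STOM (1.30) and the kinase TNIK (1.28). By group, 4 of 13 apocrine and secretory genes were lower in BT-TPR2, SCGB2A2, PIP (-2.04), SCGB1D2 (-1.30) and AZGP1 (-0.89), and none was higher. Of 9 genes of the aryl hydrocarbon receptor, 4 were higher, CYP1A1, CYP1A2 (2.91), LPCAT2 (1.56) and CYP1B1 (1.18), and none was lower, with 2 higher when only these 6 libraries were fitted. PIP, SCGB1D2, AZGP1, LPCAT2, CYP1A2 and CYP1B1 were chosen for this comparison after their values were seen. AZGP1 lost its call in 3 of 18 alternatives (edgeR adjusted p = 0.0581 to 0.0928, among them without BT-TPR2 library 2 or BT-TPR1 library 3). LPCAT2 lost its call in 8 of 18 alternatives (edgeR adjusted p = 0.0502 to 0.36, among them without BT-TPR2 library 2 or 3 or BT-TPR1 library 1, 2 or 3). CYP1A2 lost its call in 1 of 17 alternatives (edgeR adjusted p = 0.0768, with libraries 2 and 3 alone) and lay between 1.20 and 4.06 over all of them. PPP1R1B, at 101, 92.9 and 95.5 CPM in BT-TPR1, did not pass the test between the pools (log2 difference -0.28 ± 0.14).

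Against the mean of the other 3 pools, 1734 genes differed (9.82%), 752 higher (4.26%) and 982 lower (5.56%), and 4010 differed in the fit with the replicate block. Without BT-TPR2 library 1 the number was 1079. The 3 BT-TPR2 libraries lay above all 18 others for 229 genes (1.3%) and below all 18 for 255 (1.44%). TNIK, a kinase that acts with the Wnt factor TCF4, was at 7.91, 10.5 and 11.7 CPM in BT-TPR2 and elsewhere at most 5.32 CPM (1.48 ± 0.14, edgeR adjusted p = 9.27e-07). AMIGO2, an adhesion protein, was at 58.5, 48.8 and 59.3 CPM and elsewhere at most 28.4 CPM (1.43 ± 0.08, edgeR adjusted p = 2.33e-09). The separation from every other library is what the rule for this set required. B3GAT1 (1.45), TCEA3 (1.44), LINGO1, a neuronal receptor component (1.38), VEGFB (1.33) and BHLHE41 (1.32) were also among the highest in this set.

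Among the low genes that met the same rule, SLC6A14 had the largest difference (-2.75 ± 0.16, edgeR adjusted p = 2.44e-09). Its BT-TPR2 libraries were all below the lowest other library at 37.9 CPM. ANXA1, annexin A1, a phospholipid-binding protein that dampens inflammation, was at 1.28, 1.95 and 2.19 CPM in BT-TPR2, 2.82, 3.33 and 4.10 CPM in BT-TPR1 and 29.7, 29.1 and 33.1 CPM in BT-TR1 (-2.65). PLA2G2A, a secreted phospholipase, was at 13.1, 13.2 and 14.7 CPM in BT-TPR2, 28.8, 27.9 and 31.7 CPM in BT-TPR1 and 172, 164 and 166 CPM in BT-TR1 (-2.38). In both genes BT-TPR1 was the nearest of the pools and BT-TR1 the farthest. FMOD, a small matrix proteoglycan (-2.17), DPYSL3, a cytoskeletal regulator (-1.80), UGT3A2, a glycosyltransferase (-1.78), CRYM, a thyroid hormone binding protein (-1.75), and PDE3B (-1.56) followed. The groups that differed were chosen after their counts were seen. Apocrine and secretory genes were lower in 7 of 13 and higher in none, interferon-stimulated genes lower in 8 of 28 and higher in none, and cadherins and protocadherins higher in 7 of 22 and lower in 2. The count of 8 interferon-stimulated genes was 4 without BT-TPR2 library 1 or 3, 5 without BT-TPR1 library 3, BT-TR1 library 3 or BT-TR2 library 2 or 3, and 2 after thinning. The 2 lower cadherins were 1 without BT-TPR2 library 2 or 3 or BT-TPR1 library 1. In the fit with the replicate block 1 interferon-stimulated gene was higher. Named examples, chosen after their values were seen, were SCGB2A2 (-3.07), SCGB1D2 (-2.21) and SCGB2A1 (-1.97), RSAD2 (-1.89), and PCDH19 (2.05), CDH2 (1.35) and CDH11 (1.35). RSAD2 stood at -2.54 without BT-TPR2 library 2. EGFR (0.45) and ERBB4 (0.61) were higher than the mean of the other 3 pools. Against BT-TPR1 alone neither passed the test, with log2 differences of 0.36 (edgeR adjusted p = 0.164) and -0.25 (edgeR adjusted p = 0.502). EGFR passed it with the replicate block (edgeR adjusted p = 0.0326) and without BT-TPR1 library 3 (edgeR adjusted p = 0.0492).

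**Figure D5:**
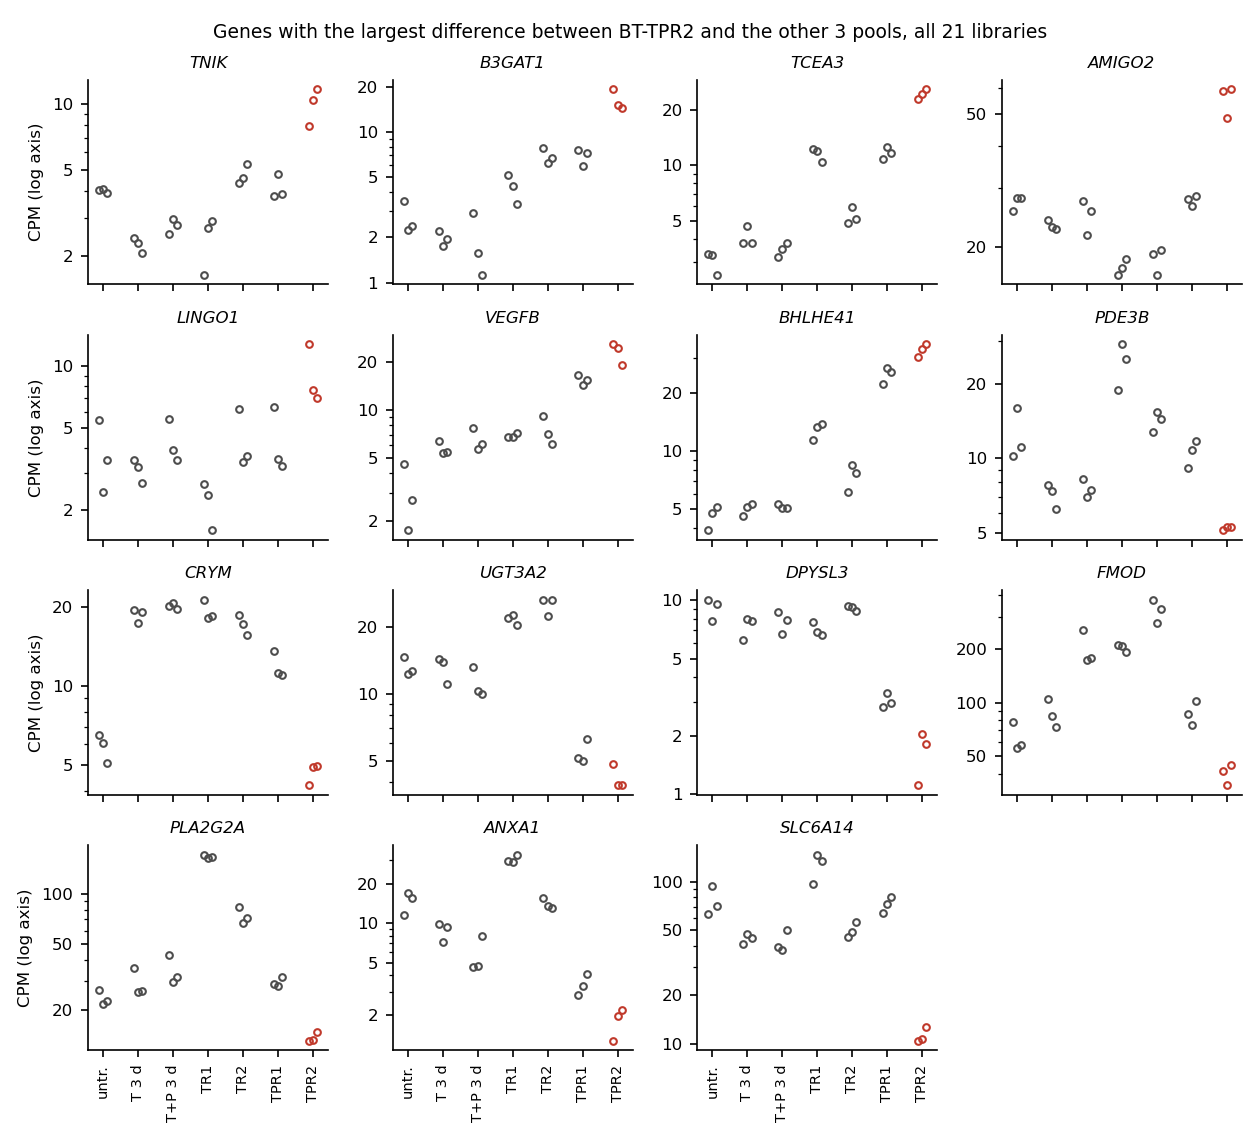
Level in CPM (vertical, log axis) in all 21 libraries, by group, of 7 of the 8 genes highest and the 8 lowest in BT-TPR2 relative to the other 3 pools (untr., untreated; T 3 d, trastuzumab for 3 days; T+P 3 d, both antibodies for 3 days). The 3 BT-TPR2 libraries (red) lie outside the other 18 in each panel, as the rule for these genes required; for TNIK they are at 7.91 to 11.7 CPM against at most 5.32 CPM elsewhere.

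The last comparison set BT-TPR2, which was harvested without antibody, against sensitive BT474 under both antibodies for 3 days. Here 4964 genes differed (28.1%), 2394 higher (13.6%) and 2570 lower (14.6%), and 8068 in the fit with the replicate block. Nearly all genes of mitosis were higher in BT-TPR2. Of 36 mitosis genes, 35 were higher in BT-TPR2 and none was lower (median log2 difference 1.04, against 0.02 for all genes). Examples were PTTG1 (2.17), AURKA (1.87), the kinase PLK1 (1.81) and MKI67 (0.88). Targets of p53 were lower in 10 of 22 and higher in none, among them the cell cycle inhibitor CDKN1A (-1.49) and the p53 regulator MDM2 (-0.54). Genes of ERK output and feedback were lower in 11 of 16 and higher in 1, among them ETV1 (-3.83), SPRY2 (-1.52), SPRED1 (-1.46) and DUSP6 (-1.06). Against untreated cells, 34 mitosis genes were lower and 0 higher under both antibodies, and 1 was lower and 4 higher in BT-TPR2. For p53 targets, 0 were lower and 10 higher under the antibodies, and 5 lower and 3 higher in BT-TPR2. For ERK output and feedback, 1 was lower and 9 higher under the antibodies, and 7 lower and 4 higher in BT-TPR2. These groups and genes were chosen after their values were seen. MDM2 lost its call in 2 of 18 alternatives (edgeR adjusted p = 0.0536 to 0.0695, among them without both-antibody library 3). ETV1 stood at -4.75 without BT-TPR2 library 3 and lay between -4.75 and -1.47 over all alternatives, so the size of its difference is uncertain.

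Among called genes of at least 5 CPM without overlap between these 2 groups, PPP1R1B was the highest in BT-TPR2 relative to the treated cells. It was at 3.85, 3.31 and 3.16 CPM under both antibodies (4.52 ± 0.17, edgeR adjusted p = 1.15e-12). ASS1 (3.97), ASS1P11 (3.78), S100A4 (3.69) and the immediate early factor EGR1 (3.28) were also among the highest. EGR1 was at 45.4, 28.98 and 44.2 CPM in BT-TPR2, 30.0, 24.7 and 36.5 CPM in untreated cells and 2.58, 6.48 and 3.07 CPM under both antibodies. BT-TPR2 and untreated cells overlapped in EGR1, and all libraries under the antibodies lay below both. Within the same limits the lowest genes in BT-TPR2 were P2RY10 (-4.70), TNFSF15 (-4.37), the glycosyltransferase B3GALT5 (-4.198), PIP, prolactin-induced protein (-3.52), ABCA4 (-3.52) and the vascular receptor HEG1 (-3.51). TNFSF15 was at 104, 92.3 and 128 CPM under both antibodies, 28.9, 28.1 and 20.96 CPM in untreated cells and 5.35, 4.42 and 6.02 CPM in BT-TPR2. CYP1A1 showed a different order, 97.7, 73.9 and 93.2 CPM under both antibodies, 53.7, 32.2 and 45.3 CPM in BT-TPR2 and 5.77, 5.48 and 4.72 CPM in untreated cells. BT-TPR2 thus lay below the antibody-treated cells in CYP1A1 and above the untreated ones in each library.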

How the data were processed

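Total RNA of 21 libraries of the BT474 cell line and its resistant pools was sequenced. Counts per gene were deposited as whole numbers, made with Bowtie2 and featureCounts on hg38 per the submitters' processing notes; versions, settings and strandedness are not given in the sources used here. A second deposited table holds variance-stabilized values on a scale like log2, for which the authors name DESeq2, and served as an alternative only.

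From the counts, edgeR 4.0.16 (R 4.3.3) kept 17650 of 37355 genes (filterByExpr by group, minimum count 10 and total 15), scaled libraries by TMM and fitted all 7 groups without a block. The quasi-likelihood test gave adjusted p (Benjamini-Hochberg over all genes tested), called under 0.05; ± is the standard error of the log2 fold change (its size divided by the square root of F). The steps were tested on simulated counts. Replicate numbers in the labels were taken as pairs only in the alternatives with a replicate block. Same-numbered deviations from the group means correlated across genes with r = 0.64, 0.19 and 0.38 between BT-TPR2 and untreated cells. The values were 0.64, 0.37 and 0.40 with BT-TPR1 and 0.62, 0.22 and 0.52 with both antibodies. Library 1 stood apart from libraries 2 and 3, and differently numbered libraries correlated too. Untreated library 2 with BT-TPR2 library 3 gave 0.32, as did untreated library 3 with BT-TPR2 library 2. That is above the 0.19 of the libraries numbered 2, so the correlations do not show that libraries 2 and 3 are paired by number.

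Top-ranked genes had an adjusted p under 0.05, a mean of at least 5 CPM and no overlap between groups. Of these the 14 largest rises and falls were taken, the 5 largest each way in CPM, 6 each way against BT-TPR1 and both antibodies, and 8 each way against the other pools. Up to 4 called members with the largest change were added from each list, whatever their level or overlap, and ERBB2, EGFR, ERBB3, ERBB4, PPP1R1B, ESR1 and PGR always. Other genes named are said to be chosen after their values were seen or did not pass the test. Members and lists were chosen with earlier results of these data known. Of 61 lists, those named here are described. Some genes that the rule takes are not reported here. Positions come from the GENCODE 29 annotation of hg38 and promoters from RefSeq (GRCh38.p14). Alternatives were other filters, scalings and tests (RLE, library size alone, DESeq2 1.42.0, limma 3.58.1 on the deposited values), a replicate block, a GC correction, only the groups compared, libraries 2 and 3 alone, thinning to the shallowest library (7939270 counts) and leaving out single libraries.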

Additional observations from a re-analysis of the deposited data

Results flagged for a closer look

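For the genes named in the report, the change from untreated cells was compared between the 2 pools resistant to both antibodies by edgeR's test of BT-TPR2 against BT-TPR1. The values are log2 differences, BT-TPR2 minus BT-TPR1, with an adjusted p under 0.05.

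Genes with a positive log2 fold change from untreated cells in BT-TPR2, called or not, and a higher level there than in BT-TPR1 were CYP1A2 (2.91), CYP1A1 (2.12), EGR3 (1.77), LPCAT2 (1.56), ECM1 (1.48), GYG2 (1.38), TNIK (1.28), B3GAT1 (1.22), CDH11 (1.19), CYP1B1 (1.18), TCEA3 (1.06), ASS1P11 (1.03), AMIGO2 (1.01), ASS1 (0.996), PDE4B (0.95), TGFBI (0.95), BAMBI (0.76), NR3C1 (0.64), PTTG1 (0.54) and TMSB10 (0.43). Positive in BT-TPR2 but lower than in BT-TPR1 were SCGB2A2 (-2.19), CST1 (-2.04), SCGB1D2 (-1.30), S100P (-0.91) and AZGP1 (-0.89). In SCGB2A2, 109, 102 and 116 CPM in BT-TPR2 stood against 472, 535 and 479 CPM in BT-TPR1.

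Genes with a negative log2 fold change in BT-TPR2, called or not, and a lower level there than in BT-TPR1 were CXCL14 (-3.75), PLAT (-3.44), SLC6A14 (-2.66), SLC13A3 (-2.35), MAML2 (-2.33), B3GALT5 (-2.16), GFRA2 (-2.14), CYP2B7P (-2.13), PIP (-2.04), PGR (-1.99), GFRA1 (-1.90), CRYM (-1.35), FRAS1 (-1.26), GABRE (-1.25), TWIST1 (-1.23), ADCY2 (-1.14), TNC (-1.13), FMOD (-1.12), PLA2G2A (-1.11), IGFBP5 (-1.08), HEY2 (-1.05), PDE3B (-1.02), COL12A1 (-0.99), LDHB (-0.99), HSPB8 (-0.99), MERTK (-0.91), PIK3R1 (-0.90), DPYSL3 (-0.86), PREX1 (-0.82) and PARP9 (-0.47). In CXCL14, 0.524, 0.465 and 0.313 CPM in BT-TPR2 stood against 7.01, 5.66 and 5.19 CPM in BT-TPR1, and in GFRA1 3.72, 3.40 and 3.70 CPM against 14.4, 11.8 and 14.2 CPM. Negative in BT-TPR2 but higher there than in BT-TPR1 were PCDH19 (1.40) and STOM (1.30).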

How the results depend on the processing

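Alternatives in which a gene was filtered out were not counted, and a run without an adjusted p counted as kept where the direction held. On this basis, 211 of 257 called values of named genes kept their direction and call in every alternative run. The other 46 lost the call in at least 1, as given beside each gene. None reversed. With the replicate block, which takes the numbers as pairs, no named gene lost its call, and the counts of genes called were 9019 against untreated cells, 2119 against BT-TPR1, 4010 against the other pools and 8068 against both antibodies. The GC correction with the block gave 9268, 2807, 4337 and 9016. The GC correction alone gave 1437 against BT-TPR1 and 2823 against the other pools. Fitting only the groups compared gave 3060 against untreated cells and 197 against BT-TPR1. Asking for a change of at least 2-fold as well gave 1646, 231, 414 and 1730. Leaving out 1 library gave 3665 to 6451 against untreated cells (lowest without BT-TPR2 library 2), 351 to 457 against BT-TPR1 (lowest without BT-TPR1 library 1), 1079 to 1850 against the other pools (lowest without BT-TPR2 library 1) and 3757 to 5000 against both antibodies.

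Values that changed sign were all of genes that did not pass the test. ERBB3 was at -0.013 with libraries 2 and 3 alone, and between -0.042 (without BT-TPR2 library 1) and 0.172 with 1 library left out. ERBB4 was at 0.029 scaled by library size alone, 0.032 without BT-TPR2 library 2, and between -0.117 and 0.091 (without untreated library 2) with 1 library left out. MKI67 was at 0.02 without BT-TPR2 library 1, and between -0.256 and 0.053 (without untreated library 2) with 1 library left out. The cause was not tested for any of these. Depth limits genes below about 1 CPM, such as LCN2, FAT3, ACACA and PLAT, where a library holds few counts.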
